A study of Mus musculus with 6 samples.

Results

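The genes described here encode the moving parts of the motile cilium. They were taken from the deposited gene table by symbol: every gene whose symbol is the stem Cfap, Dnah, Dnai, Dnaaf, Rsph, Drc or Tekt followed by digits and at most a letter, leaving out pseudogenes. The rule found 74 genes of the 55359 in the table, of which 32 were Cfap (cilia and flagella associated proteins), 15 Dnah (axonemal dynein heavy chains), 4 Dnai (dynein intermediate chains), 7 Dnaaf (dynein arm assembly factors), 8 Rsph (radial spoke heads and stalks), 3 Drc (nexin-dynein regulatory complex) and 5 Tekt (tektins). The symbols Cfap97d1, Cfap97d2, Cfap20dc and Dnah2os share a stem but not the form and were not counted. Total RNA had been sequenced from the habenula, a small region of the epithalamus beside the third ventricle, of C57BL/6 mice at 2 months of age. A total of 3 libraries carried the label WT and 3 the label Tet2 cKO, a conditional knockout of Tet2, whose product oxidises methylated cytosine. The sources used here do not give the Cre driver, the cells it acts in, the deleted exons or whether animals were pooled. Nothing says that the libraries came from separate animals, so each p-value measures only the spread among them, which may be technical.

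The axoneme is a cylinder of doublet microtubules around a central pair. Outer and inner dynein arms, built and preassembled in the cytoplasm with the help of the Dnaaf proteins, slide the doublets against each other, while radial spokes, the central apparatus and the nexin-dynein regulatory complex set the waveform. In the brain, ependymal cells on the ventricle wall carry tufts of such cilia, which move cerebrospinal fluid. The epithelium of the choroid plexus is ciliated as well, whereas neurons and astrocytes mostly bear a primary cilium that lacks dynein arms. The transcription factor FOXJ1 and the RFX factors, which bind the X-box, drive the motile cilium genes.

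Library totals lay between 16089676 and 17917987 counts. Tet2 stood at 3.45, 3.46 and 3.71 FPKM (fragments per kilobase of exon, scaled by the library total) in WT and at 4.47, 4.02 and 3.96 FPKM in the libraries labelled Tet2 cKO. It was therefore not lower under the knockout label, and every library with that label lay above every WT library. The log2 difference was 0.22 (edgeR unadjusted p = 0.0174, adjusted p = 0.9999). Since the deleted exons are not given, a level over the whole gene does not check the labels. Markers of habenula neurons were present in every library. WT replicate 3 stood apart: the summed FPKM of 14 habenula markers was 167.6 there against 212.9 to 309.5 in the other 5 libraries, and its mitochondrial share of counts was 7.66% against 5.43 to 6.44%. Values without this library are given where leaving it out changed a result most. In bulk tissue, fewer cells of a type and less RNA per cell cannot be told apart.

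Most axonemal family genes were expressed at a low level. The median of the 74 mean levels was 1.43 FPKM, and 47 genes reached the mean of 1 FPKM over the 6 libraries that was required for testing. Cfap36, which binds the small GTPase ARL3 and is used well outside motile cilia, was the highest at a mean of 33.2 FPKM. Rsph1, a subunit of the spoke head, followed among the motile-specific genes at 9.26 FPKM. By stem, the median of the mean levels was 3.23 FPKM for Rsph, 3.09 for Drc, 2.1 for Dnai, 1.93 for Tekt, 1.87 for Cfap, 0.627 for Dnah and 0.462 for Dnaaf. The spoke and regulatory complex genes therefore lay highest and the heavy chains and assembly factors lowest. The heavy chains were low per length, but their exons total 12009 to 26820 bases, so that the 15 genes still gathered 16662 counts over the 6 libraries. Dnah1, an inner arm heavy chain, was the highest of them at 1.64 FPKM.

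Among the 6 genes known chiefly from sperm, 4 were near the bottom. The outer arm heavy chains of sperm, Dnah8 and Dnah17, had means of 0.025 and 0.14 FPKM, with 67 and 237 counts over all libraries. Rsph6a, a spoke head subunit of sperm flagella, had 50 counts in all, and Tekt3 had 67. The other sperm genes were Tekt4 at a mean of 1.19 FPKM and Tekt5 at 6.2 FPKM, the highest of the tektins. Dnaaf6, on chromosome 1, had 0 counts in all 6 libraries, whereas the related Dnaaf6b, on the X chromosome, had 71 counts.

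The promoters of these genes were read for the letters of the X-box, because RFX factors act there. RefSeq promoters (GRCm38.p6, 250 bases before to 50 after the start) were at hand for 57 of the 74 genes, 64 promoters in all. The 9 letters GTTNCCATG, searched on both strands, occurred in 6 of the 64 promoters (9.38%) and in 634 of all 32851 promoters (1.93%). The shorter form GTTGCCA, which overlaps the longer one wherever its N is G, occurred in 14 (21.9%) against 4.38% of all promoters. The forkhead letters TGTTTAC, the kind that FOXJ1 reads, occurred in 4 (6.25%) against 3.65%. The stretches below are the 150 bases before the RefSeq start, 5′ to 3′ on the gene's strand, and capitals mark X-box letters of either form on either strand. They are shown because the genes hold the full letters within this stretch (Cfap52, Cfap161, Dnah5) or hold the shorter form and differed at an unadjusted p under 0.05 (Cfap44, Drc1, Tekt1), a choice made after the values were seen.
Cfap52: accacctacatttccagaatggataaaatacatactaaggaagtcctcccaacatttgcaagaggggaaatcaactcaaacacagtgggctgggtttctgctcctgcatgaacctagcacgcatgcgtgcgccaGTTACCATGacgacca
Cfap161: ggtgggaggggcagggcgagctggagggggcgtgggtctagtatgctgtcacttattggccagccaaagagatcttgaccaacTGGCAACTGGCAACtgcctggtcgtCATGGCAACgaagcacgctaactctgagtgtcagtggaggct
Dnah5: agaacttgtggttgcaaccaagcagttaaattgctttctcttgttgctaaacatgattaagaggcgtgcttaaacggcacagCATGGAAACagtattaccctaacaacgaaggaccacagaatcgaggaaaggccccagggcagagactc
Cfap44: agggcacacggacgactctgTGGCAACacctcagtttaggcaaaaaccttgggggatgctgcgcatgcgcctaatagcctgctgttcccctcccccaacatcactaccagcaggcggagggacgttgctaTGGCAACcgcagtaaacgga
Drc1: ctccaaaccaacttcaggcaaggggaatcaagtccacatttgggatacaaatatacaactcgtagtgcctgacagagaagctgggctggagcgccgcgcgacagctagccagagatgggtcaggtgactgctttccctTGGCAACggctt
Tekt1: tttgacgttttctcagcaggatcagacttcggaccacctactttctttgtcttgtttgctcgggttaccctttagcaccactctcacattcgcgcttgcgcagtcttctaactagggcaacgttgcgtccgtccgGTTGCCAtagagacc
In these stretches the letters of Cfap52 (chr11:67965643-67965792, minus strand) begin 16 bases before the start, and those of Tekt1 (chr11:72361883-72362032, minus strand) and Drc1 (chr5:30281243-30281392, plus strand) begin 15 and 12 bases before it. Cfap161 (chr7:83794840-83794989, minus strand), a protein inside the doublet, holds a tandem copy of the shorter form and then the full letters from 42 bases before the start. Cfap44 (chr16:44394649-44394798, plus strand) holds the shorter form 130 and 20 bases before the start, and Dnah5 (chr15:28203616-28203765, plus strand) holds the full letters 68 bases before it. The stretch of Tekt1 lies in an intron of the GENCODE transcript, which starts further upstream. Cfap74 also holds the full letters, but after the start of another of its transcripts, and is not shown. A match describes these letters and is not a measured binding site.

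Levels of the axonemal family genes were lower, as a group, in the libraries labelled Tet2 cKO, while no single gene passed the test across all genes. Of the 47 tested genes, 45 had a lower fitted level under the Tet2 cKO label, against 50.9% of all 14539 tested genes. The median log2 difference, Tet2 cKO minus WT, was -0.32 (a ratio of 0.803), against -0.0021 over all tested genes. At an unadjusted p under 0.05, 17 of the 47 genes were lower and 0 higher, which is 36.2% of them against 1.68% of all tested genes that were lower by the same rule and 2.57% in either direction. The genes were measured in the same 6 libraries and can vary together, so these counts are not independent observations of the label. The library median over the 47 genes had a pooled within-group SD of 0.148 on the log2 scale. With edgeR's quasi-likelihood test and Benjamini-Hochberg adjustment over all tested genes, 0 of the 47 passed an adjusted p of 0.05, where 0.0% of all genes did, and the smallest adjusted p among them was 0.9999. DESeq2 also called 0 of the 47 (0.0275% of all genes), with 15 lower at an unadjusted p under 0.05 (1.15% of all genes) and a smallest adjusted p of 0.0806, for Dnah6. Limma on log2(FPKM + 1) called 0 (0.0% of all genes), with 17 such genes (1.83% of all). Limma with library weights called 0 (0.0138% of all genes), with 16 such genes (4.04% of all).

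In the FPKM of the single libraries, 17 of the 47 genes had every Tet2 cKO library below every WT library, and 0 had the opposite order. Over all tested genes, 3.46% showed the first order and 3.34% the second. An exact two-sided permutation test gives p = 0.1 for each of these 17 genes, the smallest value that 3 libraries against 3 allow. Over all 74 family genes, tested or not, 23 showed the first order and 0 the second, against 3.26% of all genes with a count that showed the first. The count of 17 depends on which libraries are compared. It was 31 without WT replicate 1 (7.24% of all tested genes) and 27 without Tet2 cKO replicate 2 (6.22%). It was 18 without WT replicate 2 (6.7%) or Tet2 cKO replicate 1 (8.91%). It was 17 without WT replicate 3 (10.5%) or Tet2 cKO replicate 3 (6.11%). With any library left out, the share of all tested genes was thus above the 3.46% of the 6 libraries. Summed over all 74 genes, the level was 843, 910 and 993 CPM (counts scaled to the library total) in WT replicates 1 to 3 and 759, 820 and 722 CPM in the libraries labelled Tet2 cKO. The summed groups did not overlap, but WT replicate 1 and Tet2 cKO replicate 2 lay close together.

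**Figure D1:**
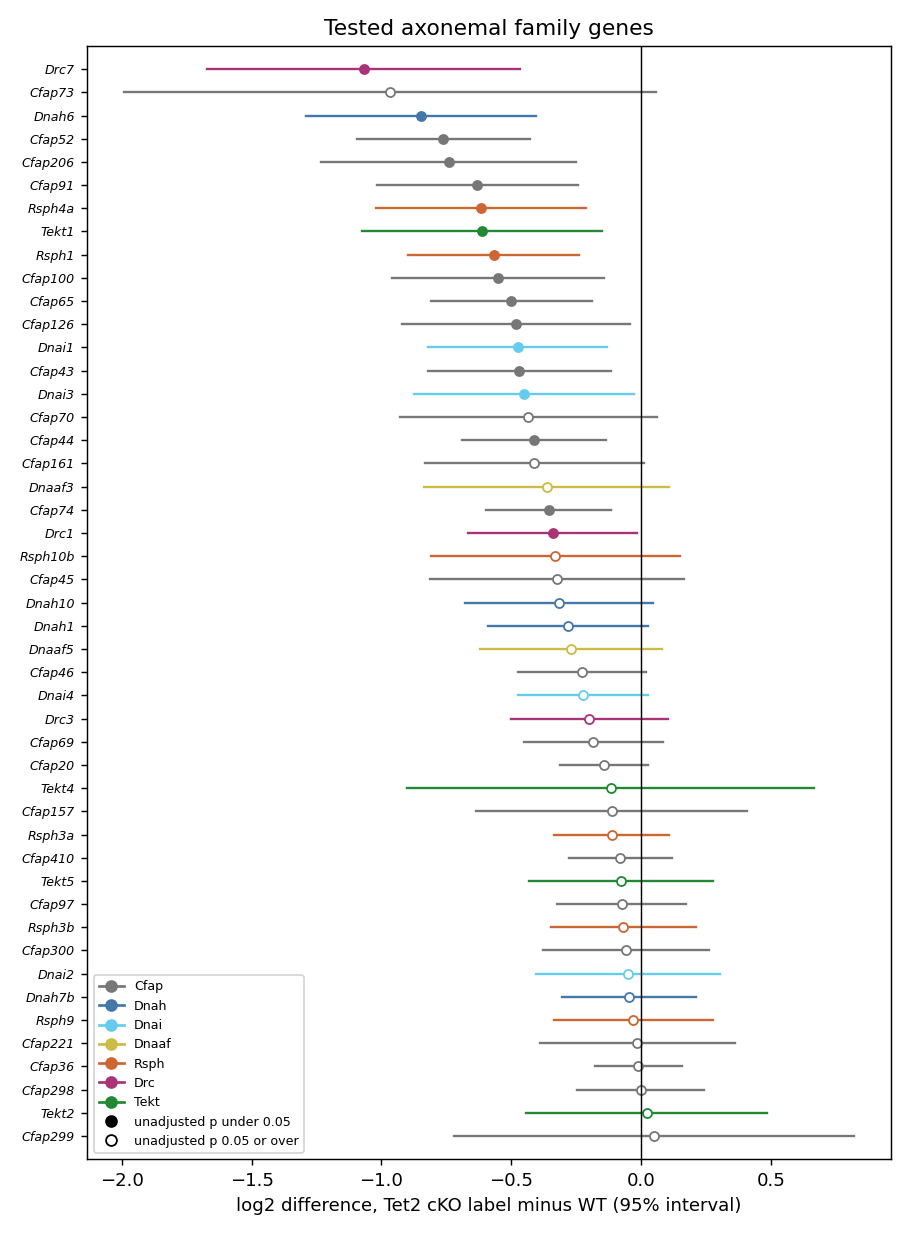
Fitted log2 difference (Tet2 cKO label minus WT) of the 47 tested axonemal family genes, with 95% intervals, coloured by stem. Filled points have an unadjusted p under 0.05, and all 17 of them lie to the left of 0.

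The radial spokes, T-shaped stalks that reach from the doublet toward the central pair, held 4 of the 17 genes. Among the 8 tested spoke genes the median log2 difference was -0.45, and all 8 were lower. Without WT replicate 3 the median was -0.33 and 6 were lower. Rsph1 (chromosome 17, 31255019 to 31277383 on GRCm38) had 9.52, 10.46 and 13.10 FPKM in the WT libraries, against 7.52, 8.22 and 6.73 FPKM in those labelled Tet2 cKO. Every WT library was above every other library. The log2 difference was -0.57 ± 0.15 (SE; edgeR unadjusted p = 0.00335). Rsph4a, another head subunit (chromosome 10, 33905111 to 33916021), had 3.67, 3.64 and 3.47 FPKM in the WT libraries, against 1.98, 3.10 and 1.98 FPKM in those labelled Tet2 cKO. Its WT libraries lay within a narrow range, and Tet2 cKO replicate 2 lay between them and the other Tet2 cKO libraries. The log2 difference was -0.62 ± 0.18 (SE, edgeR unadjusted p = 0.00681). Cfap206 and Cfap91 belong to the spoke base. Cfap206 had 2.47, 1.75 and 2.86 FPKM in the WT libraries, against 1.43, 1.60 and 1.24 FPKM in those labelled Tet2 cKO (log2 difference -0.74 ± 0.22, SE). Cfap91 had 1.48, 1.62 and 1.67 FPKM in the WT libraries, against 0.85, 1.18 and 1.06 FPKM in those labelled Tet2 cKO (-0.63 ± 0.17, SE). Neither gene's groups overlapped, and the unadjusted p was 0.0074 for Cfap206 and 0.00474 for Cfap91.

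The other 4 tested spoke genes did not reach an unadjusted p of 0.05. Rsph10b, a head subunit, had a log2 difference of -0.33 ± 0.21 (SE). Rsph9, also of the head, averaged 5.22 ± 0.48 FPKM in WT libraries and 5.14 ± 0.30 FPKM in those labelled Tet2 cKO (SD, n = 3 libraries each). Rsph3a and Rsph3b, copies of the spoke stalk gene, had log2 differences of -0.11 and -0.07. Their transcripts share 74.0% of the 50-base stretches of Rsph3a, so the split of reads between the copies is uncertain.

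The nexin-dynein regulatory complex links neighbouring doublets and holds dynein in check. Drc7 (chromosome 8, 95055103 to 95078141) had the largest difference of all tested family genes. It had 5.38, 3.89 and 3.26 FPKM in the WT libraries, against 2.44, 2.37 and 1.20 FPKM in those labelled Tet2 cKO. The groups did not overlap, although WT spanned a wide range and Tet2 cKO replicate 3 lay far below the others. The log2 difference was -1.07 with a 95% interval of -1.67 to -0.47 (edgeR unadjusted p = 0.0028), a ratio of 0.477. Drc1, a scaffold of the complex whose start is shown above, had 4.50, 5.40 and 6.60 FPKM in the WT libraries, against 4.19, 4.58 and 4.34 FPKM in those labelled Tet2 cKO. WT replicate 1 lay within the Tet2 cKO range there, and the log2 difference was -0.34 ± 0.15 (SE, edgeR unadjusted p = 0.0422). Without WT replicate 3 it was -0.18 (edgeR unadjusted p = 0.191). Drc3 had a log2 difference of -0.20 ± 0.13 (SE).

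Among the 4 tested inner arm heavy chains, Dnah6 was the only gene at an unadjusted p under 0.05. Dnah6 (chromosome 6, 73017606 to 73221651) had 1.31, 1.60 and 2.05 FPKM in the WT libraries, against 0.77, 1.18 and 0.81 FPKM in those labelled Tet2 cKO, from 179 to 481 counts a library. The groups did not overlap, with WT replicate 3 the highest. The log2 difference was -0.85 ± 0.20 (SE, edgeR unadjusted p = 0.00172), a ratio of 0.556. Dnah1 had 1.57, 2.23 and 1.58 FPKM in the WT libraries, against 1.49, 1.54 and 1.41 FPKM in those labelled Tet2 cKO, so that its groups did not overlap but differed by little apart from WT replicate 2 (log2 difference -0.28 ± 0.14, SE, edgeR unadjusted p = 0.0683). Dnah7b had a log2 difference of -0.05. It shares 30.4% of its 50-base stretches with Dnah7a and 38.5% with Dnah7c, so the levels of these copies are uncertain. Dnai3, an inner arm intermediate chain, had 1.15, 1.45 and 1.48 FPKM in the WT libraries, against 1.04, 1.05 and 0.91 FPKM in those labelled Tet2 cKO (-0.45 ± 0.19, SE, edgeR unadjusted p = 0.0386), again with no overlap. Without WT replicate 3 it was -0.37 (edgeR unadjusted p = 0.112).

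The outer arms, which supply most of the force, were represented among the tested genes by their intermediate chains. Dnai1 had 3.14, 3.37 and 3.16 FPKM in the WT libraries, against 2.21, 2.73 and 2.05 FPKM in those labelled Tet2 cKO. The groups did not overlap, and the log2 difference was -0.48 ± 0.15 (SE, edgeR unadjusted p = 0.0117). Dnai1 overlaps Enho on the opposite strand, a gene at 49.2 FPKM with the WT label and 46.1 FPKM with the Tet2 cKO label, and since the strand setting of the counting is not given, reads of these genes cannot be told apart. Dnai2, the partner of Dnai1, averaged 1.67 ± 0.24 FPKM in WT libraries and 1.62 ± 0.14 FPKM in those labelled Tet2 cKO (SD, n = 3 each), with a log2 difference of -0.05.

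The proteins that dock or regulate the inner arms had a median log2 difference of -0.51 over 4 tested genes, and of -0.39 without WT replicate 3. Cfap43 and Cfap44 form the tether of an inner arm. Cfap43 had 2.27, 2.38 and 3.35 FPKM in the WT libraries, against 1.85, 2.13 and 1.82 FPKM in those labelled Tet2 cKO, with no overlap (log2 difference -0.47 ± 0.16, SE, edgeR unadjusted p = 0.0144). Cfap44 had 2.53, 2.69 and 2.84 FPKM in the WT libraries, against 2.06, 2.32 and 1.70 FPKM in those labelled Tet2 cKO, also with no overlap (-0.41 ± 0.12, SE, edgeR unadjusted p = 0.00799). Cfap43 was at -0.26 and Cfap44 at -0.36 without WT replicate 3. Cfap100 had 2.05, 2.91 and 3.16 FPKM in the WT libraries, against 1.81, 2.11 and 1.64 FPKM in those labelled Tet2 cKO (-0.55 ± 0.18, SE, edgeR unadjusted p = 0.0133). Its WT replicate 1 lay below Tet2 cKO replicate 2. Cfap73, the partner of Cfap100, had 1.32, 0.94 and 1.9 FPKM in the WT libraries, against 0.44, 1.21 and 0.49 FPKM in those labelled Tet2 cKO. Its groups overlapped, and the log2 difference of -0.97 had an interval of -1.99 to 0.06. Cfap73 overlaps Ddx54 and Cfap100 overlaps Zxdc, which were expressed at 4.81 and 2.81 FPKM in WT.

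Proteins on the inner face of the doublet had a median log2 difference of -0.41 over 5 tested genes, and of -0.28 without WT replicate 3. Cfap52 (chromosome 11, 67924806 to 67965651), whose promoter is printed above, had the smallest unadjusted p of the 47 tested genes in this fit, although not with DESeq2 or without the filter on level. It had 3.09, 3.35 and 3.35 FPKM in the WT libraries, against 1.93, 1.83 and 2.05 FPKM in those labelled Tet2 cKO. The libraries of each group lay close together and far from the other group. The log2 difference was -0.76 with a 95% interval of -1.09 to -0.43 (edgeR unadjusted p = 0.000483), a ratio of 0.59. The gene overlaps 9130017K11Rik, which was at 0.457 FPKM with the WT label and 0.28 FPKM with the Tet2 cKO label. Cfap126, known as Flattop, had 3.72, 3.29 and 5.02 FPKM in the WT libraries, against 3.17, 2.99 and 2.52 FPKM in those labelled Tet2 cKO (-0.48 ± 0.20, SE, edgeR unadjusted p = 0.0349). Its groups did not overlap, but WT replicate 2 and Tet2 cKO replicate 1 differed by little, and without WT replicate 3 the log2 difference was -0.28 (edgeR unadjusted p = 0.163). Cfap161 averaged 1.76 ± 0.26 FPKM in WT libraries and 1.33 ± 0.17 FPKM in those labelled Tet2 cKO (SD, n = 3 each; edgeR unadjusted p = 0.0546).

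The tektins, filament proteins of the doublet wall, had log2 differences from -0.61 to 0.02 over 4 tested genes. Tekt1 had 2.99, 3.95 and 3.75 FPKM in the WT libraries, against 2.33, 2.82 and 1.86 FPKM in those labelled Tet2 cKO, with no overlap (log2 difference -0.61 ± 0.21, SE, edgeR unadjusted p = 0.0144). Tekt2 had a mean of 1.9 FPKM with the WT label and 1.95 FPKM with the Tet2 cKO label. Tekt4 had a log2 difference of -0.12, with an interval of -0.90 to 0.66 that leaves its direction undetermined. Tekt5 had 5.57, 5.78 and 7.67 FPKM in the WT libraries, against 6.57, 5.19 and 6.41 FPKM in those labelled Tet2 cKO. Its groups overlapped, with WT replicate 3 the highest library and Tet2 cKO replicate 2 the lowest (-0.08 ± 0.16, SE). Whether Tekt1 differed more than the other tektins was not tested.

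In the central apparatus, 5 tested genes had a median log2 difference of -0.23, and of -0.15 without WT replicate 3. Cfap65 had 5.35, 5.39 and 6.92 FPKM in the WT libraries, against 4.0, 4.91 and 3.65 FPKM in those labelled Tet2 cKO (-0.50 ± 0.14, SE, edgeR unadjusted p = 0.00493). Cfap74 had 4.17, 4.15 and 5.09 FPKM in the WT libraries, against 3.54, 3.78 and 3.21 FPKM in those labelled Tet2 cKO (-0.36 ± 0.11, SE, edgeR unadjusted p = 0.00825). In both genes the groups did not overlap and WT replicate 3 was the highest library. The assembly factors held none of the 17 genes, and their median over 4 tested genes was -0.16 (-0.13 without WT replicate 3). Dnaaf3 averaged 2.33 ± 0.22 FPKM in WT libraries and 1.82 ± 0.44 FPKM in those labelled Tet2 cKO, and Dnaaf5 averaged 2.14 ± 0.06 and 1.79 ± 0.27 FPKM (SD, n = 3 each). Their log2 differences were -0.36 and -0.27, with unadjusted p of 0.115 for each.

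**Figure D2:**
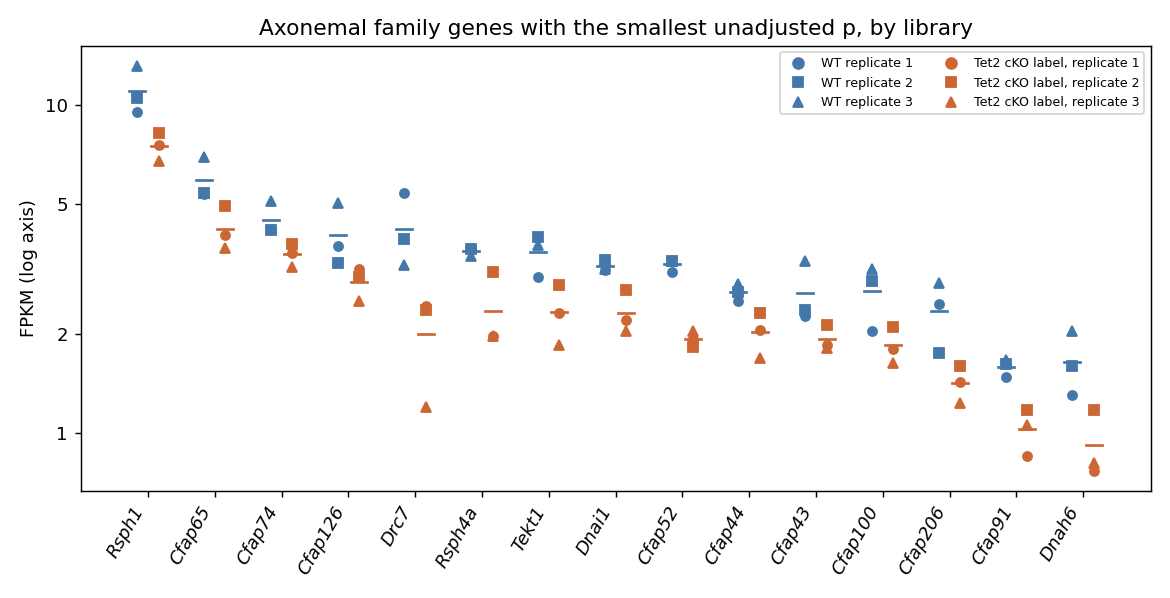
FPKM (log axis) in each of the 6 libraries for the 15 tested family genes with the smallest unadjusted p, with short lines at the group means. Cfap100 is the only gene among them in which a WT library (2.05 FPKM) lies below a Tet2 cKO library (2.11 FPKM).

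A total of 7 family genes, some of them dynein arm assembly factors, were listed as used outside motile cilia or in most cells. Their median log2 difference lay nearer to 0, a contrast that was not tested. The 6 of them that were tested were Cfap20, Cfap36, Cfap97, Cfap298, Cfap410 and Dnaaf5. They ran from -0.27 for Dnaaf5 to -0.0021 for Cfap298, with a median log2 difference of -0.08. Only Dnaaf5 among them had every Tet2 cKO library below every WT library, as 3.46% of all tested genes did. Of the 6, 0 were at an unadjusted p under 0.05, where 2.57% of all tested genes were, in either direction. Cfap36 had 34.01, 31.32 and 34.48 FPKM in the WT libraries, against 35.08, 33.01 and 31.59 FPKM in those labelled Tet2 cKO. Its groups overlapped, and the 95% interval of its log2 difference was -0.18 to 0.16. Cfap298, an assembly factor, had means of 9.13 and 9.17 FPKM. The 39 other tested genes, after the 2 tested sperm genes are set aside as well, had a median of -0.36, and they held all 17 genes. Some of these 39 lay as near to 0, such as Cfap221 (-0.02), Rsph9 (-0.03) and Dnai2 (-0.05). Without WT replicate 3 the median was -0.26 for these 39 genes and -0.06 for the 6 broadly used ones. Only Cfap299 and Tekt2 had a fitted difference above 0 among the 47, at 0.05 and 0.02, and without WT replicate 2 both were below 0, at -0.11 and -0.14. By stem the medians were -0.34 for Cfap, Dnai and Drc, -0.32 for Dnaaf, -0.30 for Dnah, -0.22 for Rsph and -0.10 for Tekt, and these differences between stems were not tested. Without WT replicate 3 they were -0.20 for Cfap, -0.27 for Dnah and Dnai, -0.26 for Dnaaf, -0.16 for Rsph, -0.18 for Drc and 0.08 for Tekt.

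A total of 26 further family genes had counts but stayed under the required mean level, from 50 to 1442 counts over the 6 libraries. They were fitted in an edgeR run with no filter on level, in which 63 of 73 family genes were lower, against 51.4% of the 31689 genes with a count. Of the 26, 19 were lower, and 8 were lower at an unadjusted p under 0.05 against 2.03% of all genes in that run. These 8 included outer arm heavy chains, which were named after their values were seen. Dnah9 had 0.74, 0.72 and 0.79 FPKM in the WT libraries, against 0.44, 0.65 and 0.42 FPKM in those labelled Tet2 cKO (log2 difference -0.57 ± 0.16, SE). Dnah11 had 0.40, 0.49 and 0.55 FPKM in the WT libraries, against 0.30, 0.37 and 0.22 FPKM in those labelled Tet2 cKO (-0.69 ± 0.20, SE). Neither gene's groups overlapped. Dnah5, which holds the X-box letters printed above, had 0.56, 0.65 and 0.92 FPKM in the WT libraries, against 0.36, 0.63 and 0.42 FPKM in those labelled Tet2 cKO (-0.60 ± 0.17, SE). Its WT replicate 1 lay below Tet2 cKO replicate 2, and without WT replicate 3 the difference was -0.36.

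In that run without a filter, 3 family genes passed an edgeR adjusted p of 0.05, where 49 of all genes did (0.155%) and 0.101% did so with a lower level. They were Dnah6 (adjusted p = 5.54e-05), Drc7 (6.88e-05) and Cfap65 (0.013), with log2 differences of -0.84, -1.06 and -0.50. All 3 had failed the same test among genes of at least 1 FPKM, at differences of the same size. The calls also turned on single libraries. Leaving out WT replicate 2, Tet2 cKO replicate 1 or Tet2 cKO replicate 3 left 0 family genes called in the unfiltered run, leaving out Tet2 cKO replicate 2 left Dnah6 alone, and leaving out WT replicate 1 or WT replicate 3 gave 6 and 4.

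WT replicate 3 had the highest level of 32 of the 47 tested genes and the lowest of 0. Tet2 cKO replicate 3 had the lowest level of 19. Without WT replicate 3, 35 of the 47 genes were lower in place of 45, and the median log2 difference was -0.18 in place of -0.32. At an unadjusted p under 0.05, 15 genes were then lower, among them 14 of the former 17, against 3.07% of all genes in that fit. Cfap52 (-0.73), Rsph4a (-0.63) and Drc7 (-1.21) kept their size without that library. Cfap45 went from -0.33 to -0.02 and Tekt4 from -0.12 to 0.26. Among genes described above, Cfap73 went from -0.97 to -0.66, Dnah6 from -0.85 to -0.65 and Cfap206 from -0.74 to -0.57. Rsph1 went from -0.57 to -0.41, Cfap100 from -0.55 to -0.41 and Cfap65 from -0.50 to -0.36. In all, 17 of the 47 genes (36.2%) then had groups that did not overlap, lower under the Tet2 cKO label, against 10.5% of all tested genes. Without Tet2 cKO replicate 3, 10 genes were lower at an unadjusted p under 0.05, against 0.97% of all genes.

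**Figure D3:**
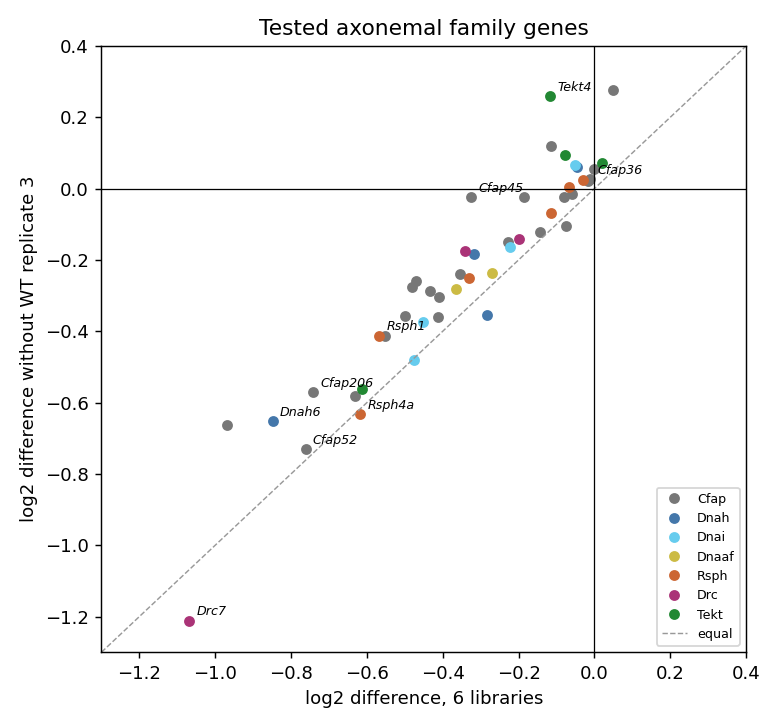
Log2 difference (Tet2 cKO label minus WT) of the 47 tested family genes with all 6 libraries (horizontal axis) and without WT replicate 3 (vertical axis); the dashed line marks equal values. Most points lie above the line, nearer to 0 or past it, as Tekt4 at 0.26 does, while Drc7 lies below it at -1.21.

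Other genes of the motile cilium were examined as lists. Axonemal genes outside these families, such as docking complex and central pair proteins, were lower in 26 of 29 tested, with a median log2 difference of -0.21 and 8 lower at an unadjusted p under 0.05 (1.68% of all tested genes). When WT replicate 3 was left out, 22 were lower with a median of -0.13. Foxj1, the regulator of the motile cilium program, had 7.47, 7.13 and 8.08 FPKM in the WT libraries, against 5.53, 6.40 and 5.18 FPKM in those labelled Tet2 cKO. Its groups did not overlap (-0.41 ± 0.11, SE, edgeR unadjusted p = 0.00482, adjusted p = 0.9999), and without WT replicate 3 the difference was -0.35. Of the 5 tested regulators of multiciliated cells, Foxj1 was the only one that was lower, and the median was 0.06. In the run without a filter, 9 of all 13 regulators were lower with a median of -0.22, and 3 were lower at an unadjusted p under 0.05 (Foxj1, Gmnc and Trp73), against 2.03% of all genes in that run. The sign of the median thus depends on the filter. Genes listed for the primary cilium had a median of -0.03, and 10 of 13 were lower, against 50.9% of all tested genes. When WT replicate 3 was left out, 11 were lower with a median of -0.06. Of these, 0 of 13 were at an unadjusted p under 0.05, where 2.57% of all tested genes were, in either direction.

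Markers of ependymal cells and of the choroid plexus epithelium were lower as well. In either list, 0 genes were at an edgeR adjusted p under 0.05 among genes of at least 1 FPKM. The ependymal markers lie outside these families, but the list was not checked for other genes of the cilium. They were lower in 11 of 11 tested genes, with a median of -0.43, from -0.88 for Mia to -0.01 for S100a11. At an unadjusted p under 0.05, 3 were lower (1.68% of all tested genes), namely Rarres2, Ccdc153 and 1700012B09Rik. When WT replicate 3 was left out, 10 were lower with a median of -0.30. Their summed FPKM ran from 111.7 to 128.6 in WT and from 98.8 to 104.3 under the Tet2 cKO label, and 0 of their genes were at 0 in all libraries. Markers of the choroid plexus epithelium, which adjoins the habenula, were lower in 17 of 17 genes with a median of -1.09, and 12 were lower at an unadjusted p under 0.05, again against 1.68%. In the run without a filter all 17 were at that p and 12 were called lower (0.101% of all genes), and without WT replicate 3 the median was -1.42. Their summed FPKM came to 1617, 963 and 515 across WT replicates 1 to 3, against 930, 230 and 349 in the libraries labelled Tet2 cKO, so these groups overlapped. The order of the libraries was not that of the axonemal genes. WT replicate 3 had the lowest choroid sum of the WT libraries and the highest axonemal and ependymal levels. The part of either marker list in the lower axonemal levels was not tested.

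**Figure D4:**
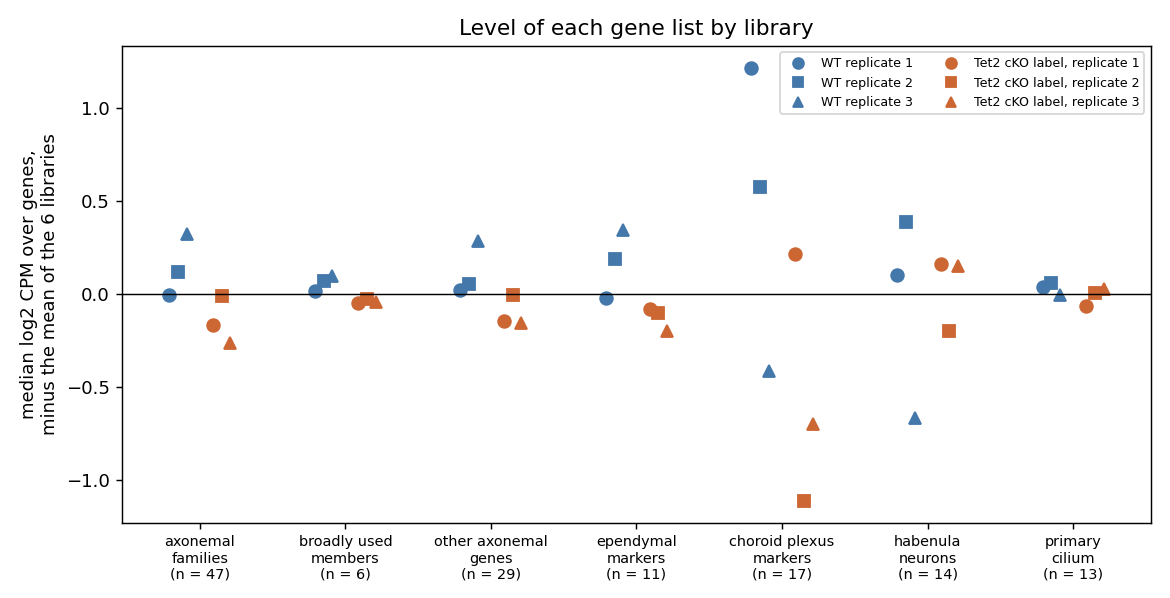
Median over the genes of each list of log2 CPM in each library, relative to the mean of the 6 libraries; n is the number of tested genes. In the axonemal families the WT libraries lie at 0.00, 0.12 and 0.32 and the Tet2 cKO libraries at -0.17, -0.01 and -0.26, and the choroid plexus markers spread from -1.11 to 1.22 in another order.

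Markers of habenula neurons had a median of 0.06, with 0 of 14 at an unadjusted p under 0.05 (2.57% of all tested genes in either direction). Without WT replicate 3 their median was -0.17, with 12 of 14 lower and 3 lower at that p (3.07% of all genes). Medians of the astrocyte, oligodendrocyte, vascular and microglia lists lay between -0.04 and 0.10. Of the 8 astrocyte markers, 5 were higher and 3 lower. At an unadjusted p under 0.05, 2 were higher, Aqp4 by 0.57 and Gja1 by 0.22 on the log2 scale. Over all 14539 tested genes, 130 were higher at that p. In the run without a filter, 1 astrocyte marker was called, against 0.155% of all genes. Among the tested family genes with a promoter in the table, the 11 with X-box letters of either form were all lower, with a median of -0.34. The 23 without them were lower in 22 cases, with a median of -0.23, and these sets were not compared by a test. Genes of the families that overlap another gene in the annotation were 34 of 74. The 23 tested among these had a median of -0.33 and the 24 tested without an overlap a median of -0.21. At an unadjusted p under 0.05 there were 8 and 9 genes, all lower, against 1.68% of all tested genes that were lower at that p.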

How the data were processed

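RNA sequencing of 6 habenula libraries (3 WT, 3 Tet2 cKO) was deposited by the authors as a table of raw counts per gene, with FPKM values that they computed and exonic gene sizes in bases, per the file headers. In 100% of cases the deposited FPKM matched, to 0.0051, the count per kilobase scaled by the library total. The submitters' processing notes list HISAT2 2.0.1, SAMtools 0.1.19, cutadapt 1.9.1 and FastQC 0.10.1, and the build mm10. Read counter, annotation release and strandedness were not given in the sources used here.

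The counts were fitted with edgeR 4.0.16 in R 4.3.3 (quasi-likelihood test, TMM scaling, two-sided, no covariate) over the 14539 genes whose mean reached 1 FPKM, adjusted by Benjamini-Hochberg over all of them at 0.05. The biological coefficient of variation (common dispersion) was 10.4%. DESeq2 1.42.0, limma 3.58.1, other scalings and filters, a replicate block and leaving out each library were alternatives. The fit without a filter under left-out libraries and the medians of stems, roles and lists without WT replicate 3 were added after the data were seen. Of 52083 identifiers shared with GENCODE release 21, 1494 had the deposited start and end, so positions are GENCODE's (GRCm38). Promoters are RefSeq's (GRCm38.p6), where 57 genes matched.

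Genes named are, per stem, the highest by mean FPKM and the 2 tested with the smallest unadjusted p. Over all stems they are the 15 with the smallest p, the 3 largest differences each way, near-identical copies and genes known chiefly from sperm. Other genes named were chosen after their values were seen. Family genes, lists and rule were chosen with earlier results of these data known.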

Additional observations from a re-analysis of the deposited data

How the results depend on the processing

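No family gene was called in any leave-one-out fit of the tested genes (0 to 0 genes). In these fits 35 to 47 were lower, and the median log2 difference ran from -0.38 to -0.18. From 10 to 22 had an unadjusted p under 0.05. The 10 came without Tet2 cKO replicate 3 (0.97% of all genes were lower at that p). The 22 came without WT replicate 1 (1.62%) and again without Tet2 cKO replicate 2 (1.33%). The share of all genes was highest, at 3.07%, without WT replicate 3, where 15 family genes were at that p. Among genes of at least 5 FPKM, 12 family genes were tested, 11 were lower, 2 had an unadjusted p under 0.05 (0.812% of all genes) and the median was -0.076. EdgeR's own filter tested 72 and put 26 at an unadjusted p under 0.05 (2.13% of all genes). The run with no filter put 28 there (2.03%) and called 3. Limma on log2(FPKM + 1), a scale that understates changes of low genes, gave a median of -0.16. The direction and the side of the threshold were kept in 526 alternative values of single genes, the direction turned in 28, and 4 came past the threshold (Cfap65, Dnah6 and Drc7 with no filter, and Dnah5 with no filter and without WT replicate 1, at -0.74). Fits that combined no filter with a left-out library were counted there only for genes under the required level. Among the others they called Cfap100, Cfap65, Dnah6, Drc7 and Rsph1 without WT replicate 1, Cfap52, Dnah6, Drc7 and Rsph4a without WT replicate 3, and Dnah6 without Tet2 cKO replicate 2. The share of all genes called in these combined fits was not counted. Dnah5 ran from -0.87 to -0.36 with single libraries left out. The cause was not tested.

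Cfap298, at -0.0021 as reported, was 0.0015 with DESeq2, 0.0015 with RLE scaling, 0.00073 with edgeR's filter, 0.0064 with library totals, 0.0053 and 0.0049 with limma at pseudocounts of 0.1 and 1, 0.068 with library weights, 0.00040 at 5 FPKM and 0.0030 with no filter. With library weights, Dnah7b was 0.040, Tekt4 0.226 and Tekt5 0.043. With single libraries left out, values ran from -0.066 to 0.054 for Cfap298, from -0.204 (without Tet2 cKO replicate 2) to 0.300 for Cfap299 and from -0.058 to 0.027 for Cfap36. They ran from -0.157 to 0.061 for Dnah7b, from -0.144 to 0.0038 for Rsph3b and from -0.135 (without WT replicate 2) to 0.148 for Tekt2. They ran from -0.315 to 0.259 for Tekt4 and from -0.162 to 0.095 for Tekt5. The highest values of Cfap298, Dnah7b, Rsph3b, Tekt4 and Tekt5 came without WT replicate 3.

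No pairing by replicate number was evident. Deviations of same-numbered libraries correlated at -0.041, 0.176 and -0.102 over all tested genes, and not every library correlated best with its own number. With 3 libraries a group, these few correlations cannot exclude a pairing. With the number as a replicate block, 0 genes were called, 16 had an unadjusted p under 0.05 (1.51% of all genes), 45 were lower and the median was -0.29.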

Other observations

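Several long axonemal genes outside the families lay under the required mean level, and they are given here as values, chosen after these were seen. Spag17, a central apparatus protein, had 0.40, 0.35 and 0.52 FPKM in the WT libraries, against 0.18, 0.32 and 0.14 FPKM in those labelled Tet2 cKO, with no overlap. Hydin, of the same apparatus, had 0.60, 0.86 and 0.62 FPKM in the WT libraries, against 0.29, 0.67 and 0.35 FPKM in those labelled Tet2 cKO, and Tet2 cKO replicate 2 lay inside the WT range. Spef2 had 0.81, 0.90 and 1.27 FPKM in the WT libraries, against 0.57, 0.84 and 0.64 FPKM in those labelled Tet2 cKO. In each of these genes Tet2 cKO replicate 2 was the highest library of its group. Ccdc39, a ruler protein of the doublet, had a mean of 5.67 FPKM with the WT label and 5.75 FPKM with the Tet2 cKO label, and its groups overlapped.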
